A study of Mus musculus with 6 samples.

Results

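The genes described here are 10 immediate early and feedback genes, chosen by symbol: Fos, Fosb, Jun, Junb, Egr1, Ier2, Ier3, Atf3, Dusp1 and Zfp36. All 10 symbols matched an identifier among the 55421 genes of the deposited count table, and 9 of the 10 passed the filter on low counts that left 13588 genes; Fosb did not. The counts came from RNA sequencing of primary bone marrow-derived macrophages, cells that are grown in culture from mouse marrow progenitors. One group, called KO here, held 3 libraries labelled Tmem175flox/flox Lyz2-Cre+/- with the genotype given as Tmem175-/-; the other held 3 libraries labelled WT. The floxed Tmem175 gene encodes an ion channel in the membrane of endosomes and lysosomes, and the Cre recombinase is driven by Lyz2, a gene of macrophages and neutrophils. No libraries with Cre alone or with floxed alleles alone were among the 6, so loss of Tmem175 cannot be told apart from effects of Cre, of its Lyz2 insertion or of genetic background. The design text names wells and no separate animals, and no stimulus, age or strain is given, so p-values measure the spread between these samples, which may be technical.

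Immediate early genes are switched on by signals without a need for new protein synthesis. Mitogen-activated kinases reach their promoters through resident factors such as SRF with its ternary complex partners and CREB, and the transcripts are short-lived. FOS and JUN proteins pair to form the transcription factor AP-1. ATF3 can repress inflammatory genes in macrophages, DUSP1 removes phosphate from p38 and JNK kinases, and ZFP36, also called tristetraprolin, binds AU-rich elements in the 3′ untranslated regions of transcripts such as that of Tnf and speeds their decay. In macrophages these genes are known for a fast rise after contact with microbial products and also for responding to handling of cells.

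Promoter windows from RefSeq on GRCm38.p6, running from 250 bases before to 50 bases after a transcript start, were found for 8 of the 10 genes and not for Egr1 and Ier2. The 4 whose levels moved together between libraries, and Junb, which did not move with them, are shown 5′ to 3′ on the strand of the gene. Capitals mark matches on either strand to the cAMP response element TGACGTCA, its core TGACG, the AP-1 letters TGANTCA, the EGR letters GCGGGGGCG, the CArG box bound by SRF, and TATAAA; each match to TGACGTCA also holds the core.
Fos, chr12:85473640-85473939, plus strand: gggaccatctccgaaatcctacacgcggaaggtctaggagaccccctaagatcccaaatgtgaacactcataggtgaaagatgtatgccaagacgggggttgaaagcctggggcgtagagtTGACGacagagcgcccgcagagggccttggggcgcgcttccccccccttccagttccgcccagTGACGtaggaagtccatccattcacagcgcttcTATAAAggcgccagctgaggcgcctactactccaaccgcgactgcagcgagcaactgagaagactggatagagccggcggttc
Jun, chr4:95052173-95052472, minus strand: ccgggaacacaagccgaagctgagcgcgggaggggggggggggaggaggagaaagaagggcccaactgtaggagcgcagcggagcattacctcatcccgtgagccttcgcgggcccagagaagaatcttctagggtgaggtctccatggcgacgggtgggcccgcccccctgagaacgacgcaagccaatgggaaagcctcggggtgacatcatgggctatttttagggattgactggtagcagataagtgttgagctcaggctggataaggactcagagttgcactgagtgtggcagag
Atf3, chr1:191183284-191183583, minus strand: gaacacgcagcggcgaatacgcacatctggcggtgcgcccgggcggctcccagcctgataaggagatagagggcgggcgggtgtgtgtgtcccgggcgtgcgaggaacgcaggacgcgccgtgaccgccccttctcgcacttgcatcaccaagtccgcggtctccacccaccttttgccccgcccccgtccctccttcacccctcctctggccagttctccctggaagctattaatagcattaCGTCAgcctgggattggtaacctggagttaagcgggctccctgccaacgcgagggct
Dusp1, chr17:26508423-26508722, minus strand: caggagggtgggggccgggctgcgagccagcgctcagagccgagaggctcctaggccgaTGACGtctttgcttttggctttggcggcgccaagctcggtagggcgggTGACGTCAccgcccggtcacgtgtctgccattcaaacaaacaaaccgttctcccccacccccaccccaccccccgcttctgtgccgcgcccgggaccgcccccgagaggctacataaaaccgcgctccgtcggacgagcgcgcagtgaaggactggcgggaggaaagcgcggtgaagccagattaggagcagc
Junb, chr8:84978699-84978998, minus strand: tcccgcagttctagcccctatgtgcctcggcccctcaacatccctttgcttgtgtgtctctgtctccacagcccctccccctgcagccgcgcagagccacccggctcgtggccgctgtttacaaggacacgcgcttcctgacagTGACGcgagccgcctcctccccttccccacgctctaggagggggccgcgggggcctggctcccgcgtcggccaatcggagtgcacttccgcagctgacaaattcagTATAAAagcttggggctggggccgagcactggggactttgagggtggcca

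The Fos window held the core TGACG with its first base at -129 and again at -66 relative to the start, and TATAAA at -33. The Dusp1 window held the full TGACGTCA at -143 and a further core at -191. The Atf3 window held 1 core, on the opposite strand at -7, the Junb window 1 core at -106 beside a TATAAA that begins at the annotated start, and the Jun window none of the 6 motifs. Of the windows not printed, that of Zfp36 held a CArG box at -58 and the EGR letters at -105, that of Fosb a core at -60 and the EGR letters at -50, and that of Ier3 none. Among all 32851 promoter windows of this length, 1.79% held TGACGTCA, 20.8% the core, 1.63% a CArG box, 2.91% the EGR letters, 7.81% TGANTCA and 13.6% TATAAA. The core was therefore present in 5 of the 8 windows of these genes, and no window of theirs held TGANTCA. A match is a string of letters and not evidence of binding. Sequence outside these windows was not searched, so a motif missing from a window may lie farther from the start. For Atf3, Dusp1 and Zfp36 the annotation also lists starts well upstream of the one used, and counts per gene do not separate transcripts by their start.

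The AU-rich nonamer TTATTTATT, the sequence to which ZFP36 is known to bind, was searched in the 3′ untranslated region of 1 transcript per gene, on the transcript strand. It was found in 3 of the 10 genes, Fos, Dusp1 and Zfp36 itself, against 7.08% of the 11845 tested genes that had such a region. A site of each is shown on GRCm38 with the nonamer in capitals; the Dusp1 region held 2, of which the one nearer the stop codon is shown.
Fos, chr12:85477103-85477131, plus strand: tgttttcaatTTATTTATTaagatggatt
Dusp1, chr17:26506159-26506187, minus strand: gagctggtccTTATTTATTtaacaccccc
Zfp36, chr7:28376951-28376979, minus strand: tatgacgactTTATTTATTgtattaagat

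The shorter pentamer ATTTA occurred 5 times in the 613-base region of Ier3, 4 times in each of those of Fos, Jun and Dusp1 and 3 times in each of those of Atf3 and Zfp36. Junb and Egr1 had 2 each, Fosb had 1 and Ier2 had 0. Per kilobase this was 8.16 for Ier3, more than in 98.5% of tested genes, and 5.80 for Dusp1 and 4.91 for Fos, more than in 95.4% and 93.2% of them; the median over genes was 1.33.

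Total counts ran from 25979430 to 31542741 in KO and from 24179548 to 25916709 in WT libraries. Tmem175 averaged 13.2 ± 1.13 CPM in KO and 33.2 ± 0.318 CPM in WT libraries (SD, n = 3 each), and Lyz2, which carries the Cre insertion, averaged 24326 ± 1578 CPM in KO and 45178 ± 4163 CPM in WT libraries. CPM, the usual depth-adjusted count, is a gene's count relative to its library's total after TMM scaling. Macrophage genes were high in all libraries, with Csf1r at 4225 CPM in KO and 4064 CPM in WT on average and Adgre1 at 2662 and 2590 CPM. Summed markers of other marrow cells lay at 755 to 817 CPM in KO and 455 to 661 CPM in WT for 12 neutrophil genes, at 13.1 to 20.5 CPM in KO and 20.3 to 29.1 CPM in WT for 9 mast cell and basophil genes, of which Mcpt4 was at 0 in every library, and at 89.1 to 123 CPM in KO and 119 to 179.8 CPM in WT for 12 lymphoid genes, most of it Cd4. The sums were 24.5 to 37.4 CPM in KO and 35.5 to 44.0 CPM in WT for 9 dendritic cell genes and 67.5 to 85.8 CPM in KO and 61.1 to 103.8 CPM in WT for 11 stromal, endothelial and epithelial genes. Of these markers of other cells, edgeR called 0 at an adjusted p under 0.05 and limma-voom 1, a neutrophil gene. DESeq2 called S100a8, S100a9 and Mpo, 2 higher and 1 lower in KO. At an unadjusted p under 0.05 by edgeR, 5 of 12 neutrophil genes were higher and 1 lower. Of tested genes, 5 of 6 mast cell and basophil, 4 of 7 lymphoid, 3 of 9 dendritic and 0 of 9 stromal ones were lower and 0 higher. Of all genes tested, 2.4% were higher and 3.04% lower. The part of these other cells in the levels below was not tested, and fewer cells of a type cannot be told apart from less RNA per cell.

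At harvest, most of the 10 genes were well expressed without a named stimulus, but they spanned a wide range. To compare genes with one another, levels were divided by the exon length of the gene, as RPKM. Atf3 stood at the top with 103 RPKM on average over the 6 libraries, above 96.6% of the 11897 protein-coding genes tested. Junb followed at 59.5, Jun at 46.1, Zfp36 at 35.8, Fos at 27.1, Ier3 at 20.5 and Ier2 at 17.2 RPKM, and all 7 lay above the coding gene median of 5.10 RPKM. Dusp1 at 4.22 RPKM and Egr1 at 1.47 RPKM lay below that median, with 45.0% and 24.7% of coding genes beneath them. Fosb was close to undetected at 0.0414 RPKM.

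The order was the same in all 6 libraries: each gene lay above the next in 6 of 6. The ranges over libraries nevertheless overlapped for Fos, at 22.3 to 31.9 RPKM, and Ier3, at 17.6 to 23.0 RPKM, and for Ier3 and Ier2, the last at 16.3 to 19.7 RPKM. All other neighbours had ranges that did not overlap. The largest step was the 35.6-fold one between Egr1 and Fosb, followed by the 4.07-fold one between Ier2 and Dusp1. Ordered by CPM with no length, Jun passed above Junb and Ier2 above Ier3. The exon length joins all annotated transcripts of a gene, so that RPKM understates a gene of which a short form is made.

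**Figure D1:**
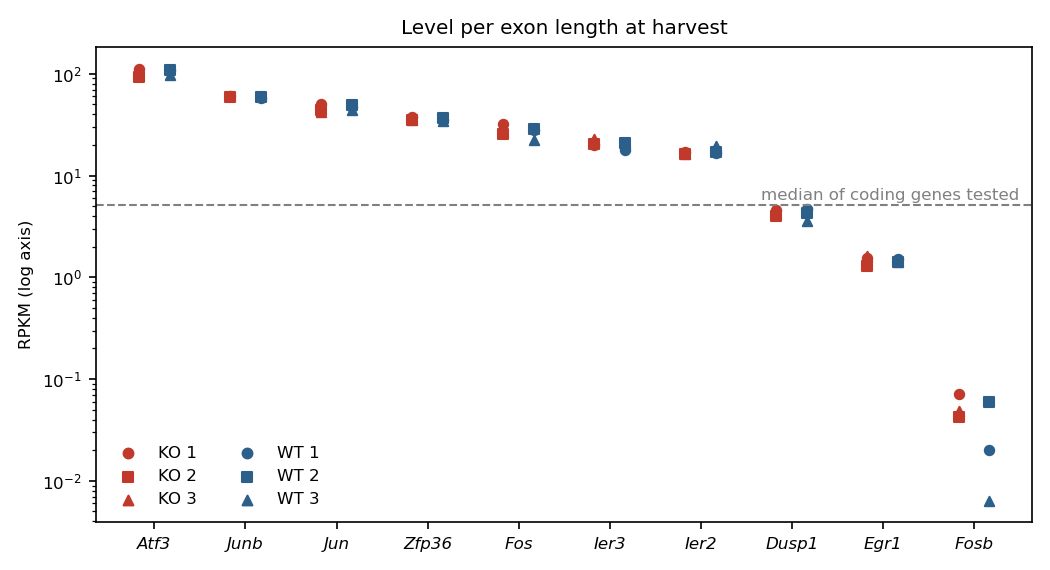
Level of each gene per exon length (RPKM, log axis) in the 3 KO libraries (red, left of each pair of columns) and the 3 WT libraries (blue, right); marker shapes give the replicate number and the dashed line the median of coding genes tested, 5.10 RPKM. Atf3, Junb, Jun, Zfp36, Fos, Ier3 and Ier2 lie above that line, Dusp1 and Egr1 below it, and Fosb is lowest, at 0.0414 RPKM on average.

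The FOS family, the AP-1 subunits that cannot pair with themselves, was made up almost wholly of Fos. Fos (ENSMUSG00000021250, chromosome 12, 85473890 to 85477273 on GRCm38) had 75.1, 60.2 and 62.8 CPM in KO against 65.7, 66.8 and 52.4 CPM in WT libraries. The groups overlapped, with the highest value in KO replicate 1 and the lowest in WT replicate 3. The log2 fold change was 0.10 (± 0.11, the SE; adjusted p = 0.973 by edgeR's quasi-likelihood test with Benjamini-Hochberg adjustment over all genes tested), and the 95% interval of the ratio of KO to WT ran from 0.909 to 1.26. Fosb (ENSMUSG00000003545, chromosome 7, 19302696 to 19310051) had counts of 14, 8 and 8 in KO against 3, 9 and 1 in WT libraries. They overlapped, since WT replicate 2 lay above KO replicates 2 and 3, and an exact two-sided permutation test on CPM gave p = 0.3, where 3 against 3 libraries allow 0.1 at the least. Per length, Fos made up 89.5% of the family's summed RPKM in KO and 88.9% in WT, and Fosl2, a later-induced relative, 10.3% and 10.9%.

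The JUN family, whose members pair with FOS proteins or with each other, was shared between Junb and Jun. Jun (ENSMUSG00000052684, chromosome 4, 95049034 to 95052222) had 161, 142 and 134 CPM in KO against 150.05, 156 and 139 CPM in WT libraries, so that both extremes lay in KO. Its log2 fold change was -0.03 (± 0.07, SE; edgeR's adjusted p was 0.979), with an interval of the ratio from 0.877 to 1.10. Junb (ENSMUSG00000052837, chromosome 8, 84974484 to 84978718), which can oppose JUN at some targets, had 138, 137 and 138 CPM in KO against 133, 135 and 141 CPM in WT libraries. These values were the steadiest of the set: the highest library exceeded the lowest 1.06-fold, the log2 fold change was 0.02 (± 0.04, SE; edgeR's adjusted p was 0.979) and the interval of the ratio ran from 0.947 to 1.08. Junb took 55.9% of the family's summed RPKM in KO and 55.2% in WT, Jun 42.7% and 43.5%, and Jund 1.45% and 1.30%.

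Atf3 (ENSMUSG00000026628, chromosome 1, 191170296 to 191218039) had 242, 199.9 and 208 CPM in KO against 233, 236 and 210.2 CPM in WT libraries. The highest and the lowest value were both in KO, in replicates 1 and 2. The log2 fold change was -0.06 (± 0.08, SE; edgeR's adjusted p was 0.973) and the interval of the ratio ran from 0.850 to 1.08. Egr1 (ENSMUSG00000038418), a zinc finger factor and a widely used readout of kinase signalling, had 7.01, 5.86 and 7.23 CPM in KO against 6.81, 6.33 and 6.36 CPM in WT libraries. Both extremes were again in KO, and the log2 fold change was 0.04 (± 0.12, SE; edgeR's adjusted p was 0.979; ratio 0.855 to 1.24). Its counts, 176 to 221 in KO and 154 to 163 in WT libraries, carry a counting error of 0.11 on the log2 scale, close to the spread of 0.12 between libraries of a group.

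Ier2 and Ier3 are short genes named for their immediate early response; IER3 is known to act in cell survival. Ier2 (ENSMUSG00000053560, chromosome 8, 84661331 to 84662852) had 26.0, 24.9 and 24.8 CPM in KO against 25.5, 25.8 and 29.9 CPM in WT libraries. The WT value of 29.9 CPM, in replicate 3, stood above the other 5 libraries. The log2 fold change of -0.10 (± 0.07, SE; edgeR's adjusted p was 0.968; ratio 0.836 to 1.04) was -0.02 without WT replicate 3. Ier3 (ENSMUSG00000003541, chromosome 17, 35821684 to 35822923) had 22.7, 23.3 and 26.0 CPM in KO against 19.96, 23.7 and 23.8 CPM in WT libraries. The lowest library was WT replicate 1 and the groups overlapped, with a log2 fold change of 0.09 (± 0.08, SE; edgeR's adjusted p was 0.968; ratio 0.937 to 1.21) that was 0.02 without it.

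The feedback genes Dusp1 and Zfp36 likewise showed no call. Dusp1 (ENSMUSG00000024190, chromosome 17, 26505590 to 26562128) had 15.0, 13.2 and 13.9 CPM in KO against 15.6, 14.2 and 11.8 CPM in WT libraries. The WT libraries held both extremes, and the log2 fold change was 0.02 (± 0.11, SE; edgeR's adjusted p was 0.987; ratio 0.860 to 1.19). Zfp36 (ENSMUSG00000044786, chromosome 7, 28376784 to 28380253) had 131, 123 and 123 CPM in KO against 122, 128 and 118 CPM in WT libraries, a narrow range in which KO replicate 1 was highest. Its log2 fold change was 0.04 (± 0.05, SE; edgeR's adjusted p was 0.979; ratio 0.948 to 1.11). Per length, Zfp36 made up 16.8% of its family's summed RPKM in KO and 16.6% in WT, behind Zfp36l2 with 59.2% and 57.4% and Zfp36l1 with 24.1% and 26.0%.

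Opposite-strand genes share some exon bases with 4 of the 10, and the strand setting of the counting is not given in the sources used here. Prdx2, an antioxidant enzyme gene expressed at 160 to 176 CPM in KO and 156 to 167 CPM in WT, shares 173 bases with Junb. The antisense transcript Junos shares 232 bases with Jun, with counts of 60, 42 and 39 in KO against 18, 31 and 32 in WT libraries, and Gm44710 shares 125 bases with Zfp36, with counts of 14, 14 and 10 against 21, 17 and 15. Ergic1 shares 11 bases with Dusp1.

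**Figure D2:**
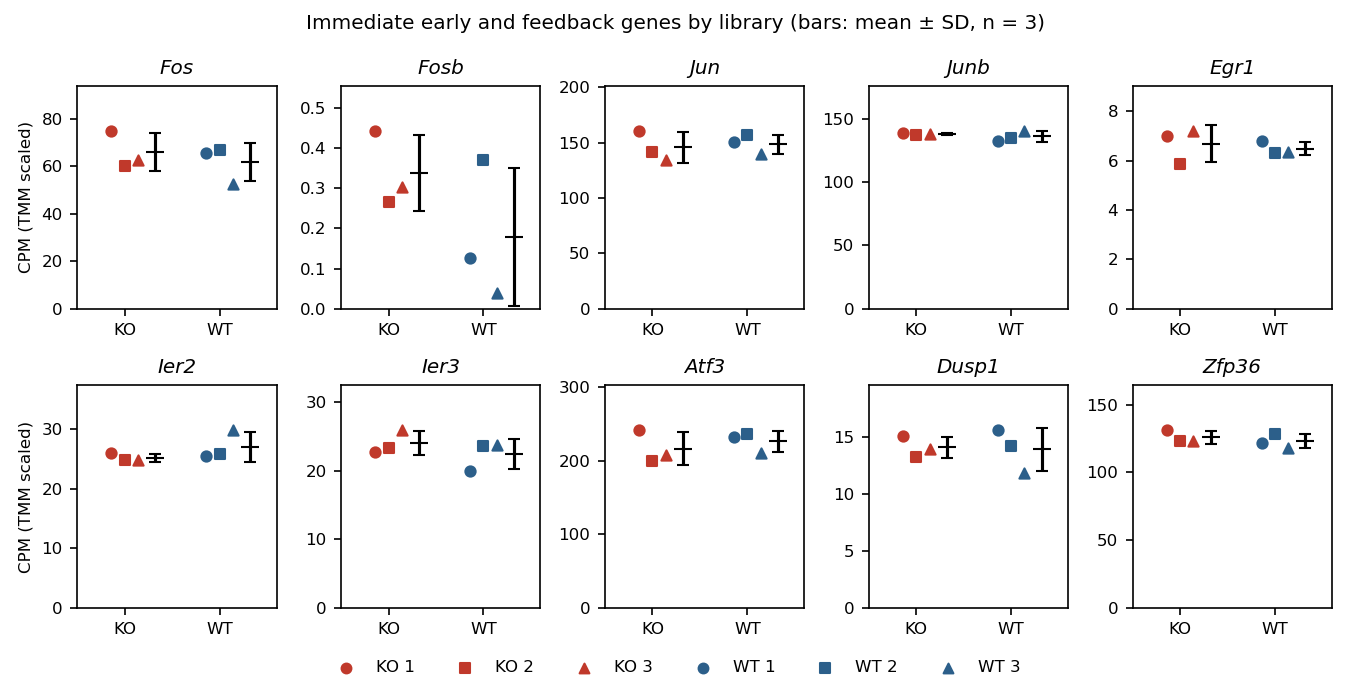
CPM after TMM scaling of each of the 10 genes in the 3 KO libraries (red, left) and the 3 WT libraries (blue, right) of each panel, with marker shapes for the replicate number and black bars for the mean and SD (n = 3); axes start at 0. The groups overlap in every panel, and Fosb, with counts of 1 to 14, has the widest relative spread.

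Of the 9 genes tested, 0 were called higher and 0 lower in KO macrophages at an adjusted p under 0.05 by edgeR, where 0.103% of all genes tested were called, 0.0147% higher and 0.0883% lower. DESeq2 and limma-voom also called 0 of 9. Over all genes, DESeq2 called 10 higher and 30 lower, and limma-voom 3 higher and 12 lower. In edgeR's test 0 of 9 had an unadjusted p under 0.05, against 5.44% of all genes, 2.4% higher and 3.04% lower. The groups overlapped for all 10 genes, while 10.8% of all genes tested had groups that did not overlap, 5.73% higher and 5.06% lower. Log2 fold changes ran from -0.10 for Ier2 to 0.10 for Fos, 6 positive and 3 negative, with a median of 0.02 beside -0.00090 over all genes tested. The intervals bound what these libraries leave possible: over the 9 genes the lowest lower bound of the ratio of KO to WT was 0.836, for Ier2, and the highest upper bound was 1.26, for Fos. For Fosb no such interval is available.

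**Figure D3:**
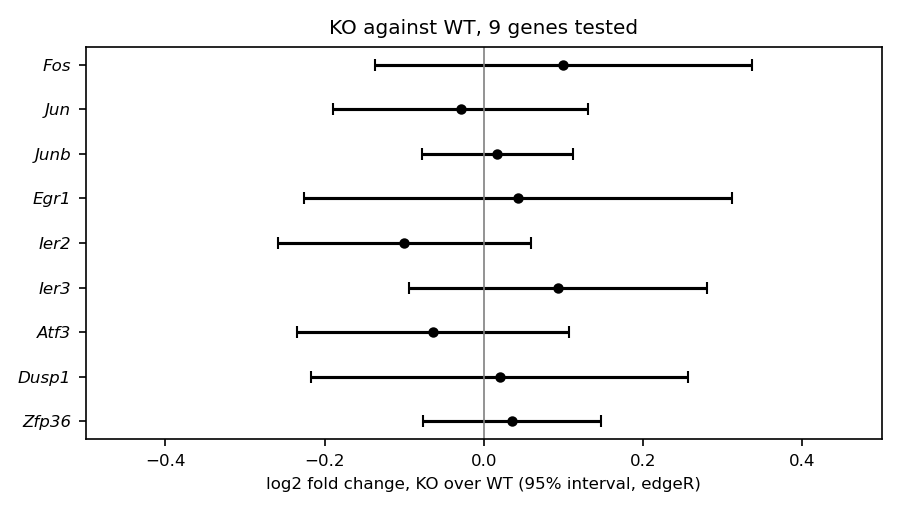
Log2 fold change of KO over WT (points) with its 95% interval (bars) from edgeR's quasi-likelihood fit for the 9 genes that passed the filter. All intervals include 0; that of Junb is the shortest and that of Egr1 the longest.

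Libraries of the same genotype differed from one another for several of these genes. The 9 genes did not move as one over all 6 libraries. Over their 36 pairs, the deviations from the own group's mean had a median Pearson r of 0.039, with 18 pairs positive. Over all pairs of genes tested the median was 0, with 49.94% positive. In KO, however, 8 of the 9 lay above the group's mean in replicate 1, 0 in replicate 2 and 2 in replicate 3. The counts were 5, 6 and 3 in WT replicates 1, 2 and 3. Of all genes tested, 49.91% to 51.33% lay above it in each library. Against the mean of the other 8 genes, log2 CPM over the 6 libraries had an r of 0.745 for Zfp36, 0.713 for Atf3, 0.703 for Fos and 0.601 for Jun, and of -0.212 for Junb, -0.242 for Ier3 and -0.311 for Ier2. Egr1 and Dusp1 lay between, at 0.405 and 0.351. Fos, Jun, Atf3 and Dusp1 were above their own group's mean in KO replicate 1 and in WT replicates 1 and 2, and below it in KO replicates 2 and 3 and WT replicate 3. These 4 genes were singled out after their values were seen. On the log2 CPM scale, Fos deviated by 0.19 in KO replicate 1, -0.13 in KO replicate 2 and -0.07 in KO replicate 3, and by 0.10, 0.12 and -0.23 in WT replicates 1, 2 and 3. Dusp1 deviated by 0.10, -0.08 and -0.01 in the KO and by 0.18, 0.04 and -0.22 in the WT libraries. Zfp36 followed the same line except in WT replicate 1, where it was 0.01 below its group's mean.

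The same pattern of signs was found in 6.67% of all genes tested, or 906 genes, and its mirror image in 945, so that it is common in these libraries. The first principal component of all genes divides the libraries in the same way by its sign, and it held 29.3% of the variance. The component placed KO replicates 1, 2 and 3 at -2.62, 17.4 and 13.2, and WT replicates 1, 2 and 3 at -19.9, -17.5 and 9.41. The difference between the means of KO replicate 1 with WT replicates 1 and 2 and of the other 3 libraries was 0.24 for Fos and 0.20 for Atf3 and for Dusp1, 0.17 for Jun and 0.07 for Zfp36 in log2 CPM. This division of the libraries was read from the same genes, so its size is a description. The labels name no batch. Fos, Jun, Atf3 and Dusp1 kept the pattern with each of the 3 other scalings tried.

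Junb, Ier2, Ier3 and Egr1 did not follow that line over all 6 libraries, though all of them lay below their group's mean in KO replicate 2. Junb and Ier2 lay on the same side of their group's mean in all 6 libraries, above it in KO replicate 1 and WT replicate 3 alone, a pattern of 1.96% of all genes; the deviations of Junb in KO were small, from -0.0075 to 0.0075. Ier3 was highest in KO replicate 3 and lowest in WT replicate 1, at deviations of 0.12 and -0.17, and Egr1 was lowest in KO replicate 2, at -0.19. Of the 36 pairs, 8 had an r of deviations over 0.8, against 5.98% of all pairs of genes tested. Fos and Atf3 had an r of 0.955, Jun and Atf3 one of 0.910, and Junb and Ier2 one of 0.971, while Junb and Dusp1 had one of -0.823. These values are descriptions over 6 libraries that all genes share, with 1 degree of freedom lost per genotype.

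**Figure D4:**
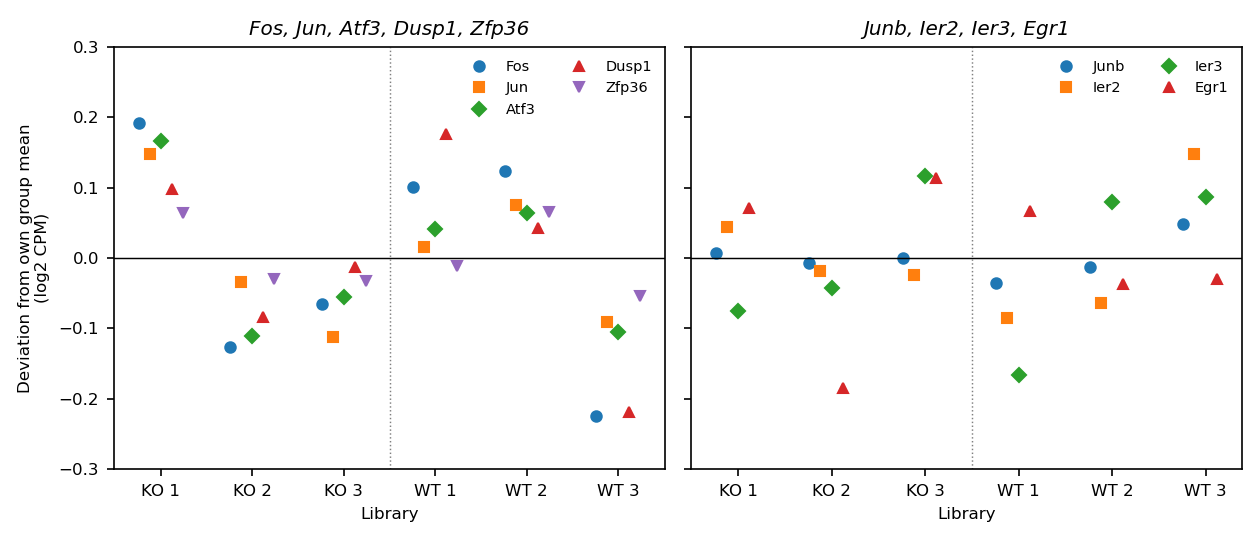
Deviation of each tested gene from the mean of its own genotype (log2 CPM) in each library, KO left and WT right of the dotted line; the left panel holds Fos, Jun, Atf3, Dusp1 and Zfp36 and the right panel the other 4 genes, a division made after the values were seen. In the left panel all points of KO replicate 1 and WT replicate 2 lie above 0. All points of KO replicates 2 and 3 and WT replicate 3 lie below it. In the right panel all points of KO replicate 2 also lie below 0, and those of KO replicate 1 lie above it except for Ier3. In the remaining libraries the right panel holds points on both sides of 0.

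The median size of these swings was close to that of all genes tested, which include genes of much lower counts. A comparison with genes of similar level was not made. The spread between libraries of a group was 0.18 in log2 CPM for Fos, 0.16 for Dusp1, 0.12 for Ier3, Atf3 and Egr1, 0.11 for Jun, 0.09 for Ier2, 0.06 for Zfp36 and 0.03 for Junb. The median was 0.12 over the 9 genes and 0.11 over all genes tested. For Fos, 68.8% of genes had a smaller spread, and for Junb 3.89%. Counting error alone would give 0.03 for Fos and 0.02 for Junb, Jun and Atf3.

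Depth and RNA measures were set beside the swings. KO replicate 1 had the largest total, 31542741, and WT replicate 1 the smallest, 24179548, and both lay on the high side for Fos. Within WT, replicate 3 had the largest total, 25916709, and the lowest Fos. Mitochondrial genes took 1.21%, 1.14% and 1.22% of counts in KO and 1.16%, 1.18% and 1.15% in WT replicates 1, 2 and 3, and ribosomal RNA genes 0.0994% to 0.112% in KO and 0.166% to 0.231% in WT. Of the marker lists, that of mast cells and basophils also stood higher in KO replicate 1 than in KO replicates 2 and 3, with summed levels of 20.5, 14.8 and 13.1 CPM. In WT it stood at 23.3, 29.1 and 20.3 CPM, also lowest in replicate 3; 6 of its 9 genes were tested. The dendritic cell list, with all 9 of its genes tested, divided the libraries likewise by its summed level alone, with 37.4, 24.5 and 29.6 CPM in KO and 44.0, 42.9 and 35.5 CPM in WT replicates 1, 2 and 3. With its genes weighted equally, as mean centred log2 CPM, it stood at -0.11, -0.23 and -0.04 in KO and 0.13, 0.34 and -0.09 in WT, highest in replicate 3 among the KO libraries. Weighted in the same way, the other feedback regulators described below stood at 0.044, -0.053 and -0.031 in KO. In WT they stood at 0.042, 0.050 and -0.052, so that they divided the libraries as Fos did. The other immediate early transcription regulators stood at 0.038, -0.031 and -0.063 in KO and 0.045, -0.0020 and 0.013 in WT, lowest in WT replicate 2. The part of any of these in the swings was not tested.

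The 8 genes outside the set whose log2 CPM was most like the mean standardised level of the 9 genes over the 6 libraries were Yipf6, Galnt6, Pknox1, Leprot, Fkbp1b, Fra10ac1, Atp6v0c and Cyba, with a Pearson r from 0.978 for Cyba to 0.989 for Yipf6. They were taken from 9531 genes that averaged 5 CPM or more, of which 119 had an r above 0.9. With KO replicates 1 and 2 left out, the libraries farthest from the median, r ran from 0.831 for Cyba to 0.970 for Pknox1. The remaining libraries were among those used to choose the 8 genes, so these values are no separate check. With library totals as the scaling, 2 of the 8 were still among the top 8, so the names depend on the scaling.

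Related genes were read from the same fit to place the 10 among their neighbours in the pathway. Beside each list below, 2.4% of all genes tested had an unadjusted p under 0.05 above and 3.04% below. Over all genes edgeR called 0.103%, DESeq2 called 10 genes higher and 30 lower, and limma-voom 3 higher and 12 lower. Groups that did not overlap were found in 10.8% of all genes. The genes named from a list were chosen for the smallest p, a choice that favours groups that do not overlap. In the list of 30 other immediate early transcription regulators, 28 were tested and 0 were called by edgeR, DESeq2 or limma-voom. The median log2 fold change was -0.02, and 0 had an unadjusted p under 0.05 above and 2 below. These 2 were the nuclear receptors Nr4a3 and Nr4a2. Nr4a3 had 2.89, 2.90 and 3.39 CPM in KO against 4.05, 3.99 and 3.90 CPM in WT libraries, which did not overlap, with a log2 fold change of -0.38 (± 0.15, SE; edgeR's adjusted p was 0.896). Nr4a2 was low, at 0.704 ± 0.0506 CPM in KO and 1.11 ± 0.210 CPM in WT (SD, n = 3 each), with a log2 fold change of -0.66 (± 0.27, SE; edgeR's adjusted p was 0.908). Cebpb, a C/EBP factor of myeloid cells, stood at a log2 fold change of -0.25 (± 0.12, SE; edgeR's adjusted p was 0.932), which was -0.08 without WT replicate 1.

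Among 31 tested genes of a list of 32 other feedback regulators, edgeR called 0, DESeq2 called 1 and limma-voom 0. Of these 31, 2 had an unadjusted p under 0.05 above and 4 below, against 2.4% and 3.04% of all genes tested. The median log2 fold change was -0.02. The gene DESeq2 called was Dusp4, a nuclear phosphatase of mitogen-activated kinases and a relative of Dusp1. Dusp4 had 30.1, 31.6 and 27.7 CPM in KO against 22.8, 22.1 and 23.5 CPM in WT libraries. Every KO library lay above every WT library. The log2 fold change was 0.39 (SE 0.06), a ratio of 1.31 with an interval from 1.19 to 1.45. In edgeR's test the adjusted p of Dusp4 was 0.105, above the threshold; the DESeq2 Wald test gave an adjusted p of 0.0169. Sik1, a kinase that restrains CREB coactivators, stood at -0.23 (± 0.07, SE) in log2 and Trib1, a pseudokinase that directs C/EBP proteins to degradation, at -0.20 (± 0.06, SE), both with an adjusted p of 0.734 (edgeR) and with groups that did not overlap.

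The 34 genes of signal input, from RAS proteins and kinases to SRF and CREB, were all tested, and edgeR, DESeq2 and limma-voom called 0. The median log2 fold change was 0.0019, and 1 gene had an unadjusted p under 0.05 in each direction. Elk3, a ternary complex partner of SRF, had a log2 fold change of 0.17 (± 0.06, SE; edgeR's adjusted p was 0.795) and Map3k8, the kinase that activates the ERK pathway downstream of Toll-like receptors, one of -0.22 (± 0.07, SE; edgeR's adjusted p was 0.756). Hras stood at 0.13 (± 0.08, SE; edgeR's adjusted p was 0.961). The groups did not overlap for Elk3 and Map3k8 and overlapped for Hras.

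Of 22 inflammatory and survival transcripts with AU-rich elements or primary response kinetics, 18 were tested and 0 called by any of the 3 tools, with a median log2 fold change of -0.06 and 0 above and 2 below at an unadjusted p under 0.05. Pim1, a survival kinase gene, had 63.3, 65.5 and 64.1 CPM in KO against 65.5, 73.7 and 73.8 CPM in WT libraries, a log2 fold change of -0.14 (± 0.06, SE; edgeR's adjusted p was 0.905). Ptgs2, the inducible cyclooxygenase, was low at 0.680 ± 0.0795 CPM in KO and 1.03 ± 0.117 CPM in WT (SD, n = 3 each; KO over WT -0.60 ± 0.26 in log2, SE; edgeR's adjusted p was 0.908), and Il10 stood at -0.26 (± 0.16, SE; edgeR's adjusted p was 0.961) and at -0.08 without WT replicate 3. Of 20 heat shock and handling stress genes, 19 matched 1 identifier, 18 were tested and 0 called by any of the 3 tools, with 1 above and 0 below at an unadjusted p under 0.05 and a median of 0.0047. The 1 was Trib3, a stress-induced pseudokinase, at 0.987 ± 0.270 CPM in KO and 0.601 ± 0.131 CPM in WT (SD, n = 3 each; KO over WT 0.72 ± 0.32 in log2, SE; edgeR's adjusted p was 0.908). The chaperone genes Hspd1 and Hsp90ab1 had log2 fold changes of -0.10 (SE 0.06) and -0.07 (SE 0.05).

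**Figure D5:**
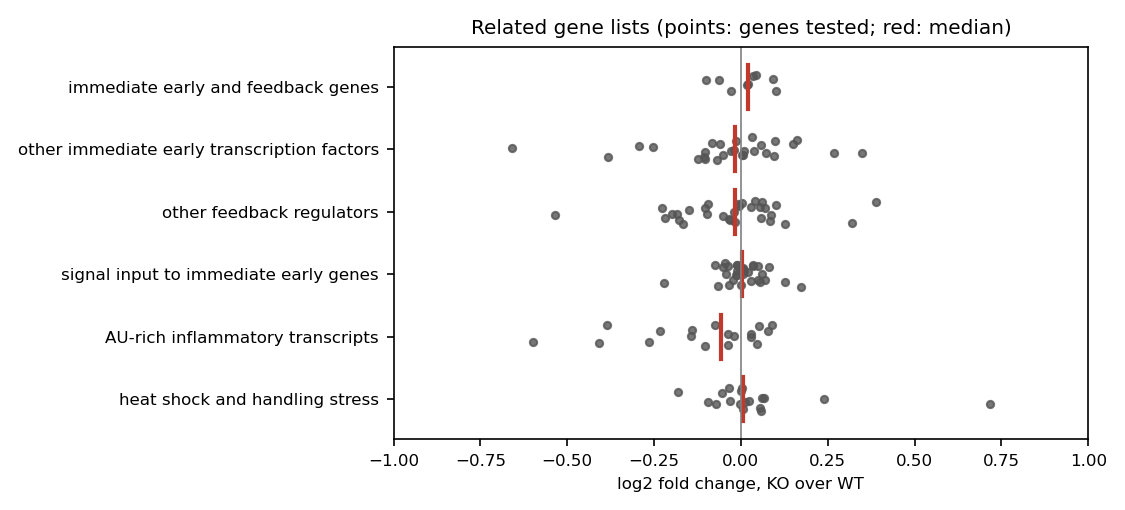
Log2 fold change of KO over WT for each tested gene (grey points, jittered vertically) of the set and of 5 related lists, with the median of each list in red. All 9 genes of the set lie between -0.10 and 0.10; the medians of the 5 lists lie between -0.06 for AU-rich inflammatory transcripts and 0.0047 for heat shock and handling stress.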

How the data were processed

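The 6 libraries came from TRIzol lysates and a SMARTER mRNA-Seq kit, per the labels' protocols. The authors deposited whole-number counts with Ensembl gene identifiers, not normalized; the submitters' processing notes list HISAT2, featureCounts and the build GRCm38. The strand setting, tool versions and annotation release are not given in these sources. Symbols, positions and exon lengths came from GENCODE M21, which matched 55240 of 55421 identifiers, and promoters from RefSeq.

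Counts were filtered with filterByExpr and scaled by TMM, and KO was compared with WT by edgeR 4.0.16 (R 4.3.3), two-sided, with genotype as the only term and Benjamini-Hochberg adjusted p under 0.05 over all genes tested as the threshold. Log2 CPM used a prior count of 2. DESeq2 1.42.0 and limma-voom (limma 3.58.1), other scalings and filters, a replicate block and leaving out each library were alternatives. The test was tested on simulated data, where fold changes came back without bias, the smallest of them were often missed, and the share of false calls was above the nominal level. Replicates of a genotype differed by more than sampling noise (chi-square over its degrees of freedom 3.89 to 19.6). The 10 genes, the related lists and the rule for genes named from them (any called, plus the 3 with the smallest p per list, and the 8 genes most like the set) were chosen with earlier results of these data known.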

Additional observations from a re-analysis of the deposited data

How the results depend on the processing

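None of the 9 tested genes of the set was called under any of the 14 alternatives. The median log2 fold change of the 9 moved by less than the spread between libraries in each, from -0.0041 to 0.061. The sign turned for Jun with library totals as the scaling (0.013), and otherwise only when a library was left out, where Fos ran from -0.0041 to 0.17, Jun from -0.10 to 0.027, Junb from -0.00025 to 0.042, Egr1 from -0.012 to 0.13 and Dusp1 from -0.083 to 0.11. Fos was at -0.0019 without KO replicate 1 and -0.0041 without WT replicate 3. Jun was at 0.027 without KO replicate 3 and 0.0098 without WT replicate 2. Dusp1 was at -0.03 without KO replicate 1 and -0.083 without WT replicate 3, Egr1 at -0.012 without KO replicate 3 and Junb at -0.00025 without WT replicate 1. Over all genes, edgeR called 2 higher and 12 lower; DESeq2 called 10 and 30, and edgeR with no filter 39 and 112. Without 1 library in turn the counts ran from 0 to 2 higher and from 4 to 10 lower; the cause was not tested. Dusp4 was called higher with no filter (0.40) and by DESeq2 (0.39), at adjusted p-values of 0.000288 and 0.0169; over all alternatives they ran up to 0.529. Library totals moved the median of all genes from -0.00090 to 0.04. The replicate block called 3 genes higher and 14 lower and none of the set. Same-numbered libraries did not deviate together over all genes, with an r of 0.06, -0.12 and 0.04 for numbers 1, 2 and 3. Over the genes of the set alone the r was 0.73, -0.07 and 0.44, while unlike numbers ran from -0.77 to 0.50. Not every library correlated best with its own number, and the labels do not say whether the numbers pair libraries. Fosb, with 30 counts in all in KO and 13 in WT, did not pass the filter, so no fitted fold change is given for it.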
